A study of Drosophila melanogaster with 87 samples.

Results

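Of the 17562 genes counted, 42 were higher in fly brains at 6 h of recovery from heat stress (HS) than in unstressed (basal) brains. Right after HS, in the replicates used for the choice, they were below basal or less than 0.2 above it on a log2 scale. Both held in control and in *Mettl3* RNAi flies. The genes were chosen by these measured values. In brain replicates 1 to 3 of each state, of which control brains at 6 h have 2, the log2 of the mean level plus 1 had to be at least 0.5 higher at 6 h than in basal brains and less than 0.2 higher after HS, in both genotypes, and every 6 h library had to lie above every basal library of its genotype. Levels are given as CPM, the share of a library's counts that fall on a gene brought to one common total, after scaling by TMM factors, which correct library totals for composition. A rise of this size in both genotypes was met by 141 genes, the limit after HS by 53 of these, and separate libraries by 42. The levels at 6 h, after HS and in basal replicates 1 to 3 are therefore given as a description, and nothing is read from a test of them.

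The libraries come from male *Drosophila melanogaster* in which DaGal4, a driver active in all tissues, expressed a control RNAi, *Mettl3* RNAi or *Ythdc* RNAi, so control flies carry the driver and a hairpin too. Crosses were kept at 25 °C. The labels have males collected 1 to 2 days after eclosion, and the heat stress protocol has adults aged to 6 days after eclosion. Basal flies were not stressed, HS flies were taken right after 30 min at 38.5 °C, and recovering flies were returned to 25 °C for 6 or 24 h. Dissected brains gave 35 libraries of control and *Mettl3* RNAi flies (6 basal and 6 HS replicates in each genotype, 2 control and 3 *Mettl3* RNAi libraries at 6 h, 3 of each at 24 h) and 12 libraries of an experiment with *Ythdc* RNAi and its own controls (3 basal and 3 HS of each). Heads, pooled at 200 per sample, gave 20 immunoprecipitates with an antibody to N6-methyladenosine (m6A-IP) and 20 inputs of the same fragmented RNA, with antibodies named NEB (3 pools per group) and SYS (2 pools per group). Whole brains were measured, so more RNA per cell and more cells of a type cannot be told apart. The labels name replicates but not how the flies were divided, so p-values cover the spread between these libraries only.

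Heat stress makes flies transcribe chaperone genes within minutes through heat shock factor, while much other transcription is lowered, and the chaperone messages decline when the flies cool. The recovery that follows has its own programme, in which proteins damaged by heat are refolded or degraded. Mettl3 is the catalytic subunit of the enzyme complex that writes m6A on messenger RNA, Spenito (nito) is one of the other subunits, and Ythdc is a nuclear reader of the mark.

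Brain libraries of replicates 1 to 3 and of recovery held 19356178 to 37990405 counts, replicates 4 to 6 held 37837504 to 47569033, the Ythdc experiment 33931604 to 65901563, head inputs 12164686 to 17710227 and m6A-IPs 1318964 to 19583593. In the experiment with *Mettl3* RNAi, Mettl3 was at 1.7 to 4.06 CPM in control brains and at 0.111 to 1.2 CPM in *Mettl3* RNAi brains. Basal libraries of *Mettl3* RNAi stood apart. Hsp68, an inducible chaperone, was at 6.42 to 9.8 CPM in the control basal brains and at 8.86 to 86.8 CPM in the *Mettl3* RNAi basal brains, with the highest values in replicates 1 and 3. Replicate 1 also had the highest sums of 18 muscle markers (2500 CPM, against 687 to 1150 CPM in control basal replicates 1 to 3) and of 11 trachea and cuticle markers (455 CPM against 64.1 to 86.9 CPM). At 6 h these sums were 550 to 890 CPM and 84.2 to 125 CPM, and none of the markers on these lists was at 0. The 17 glia markers summed to less at 6 h than in basal replicates 1 to 3 of the same genotype, at 5530 to 5780 CPM against 6880 to 7250 CPM in control and at 6000 to 6260 CPM against 7060 to 8010 CPM in *Mettl3* RNAi, where basal replicates 4 to 6 were at 5560 to 6190 CPM. In control the 16 fat body markers were lower too (2200 to 2580 CPM against 3540 to 4660 CPM), as were the 14 antenna and proboscis markers (257 to 260 CPM against 347 to 542 CPM) and the muscle markers, while in *Mettl3* RNAi these sums overlapped. In control basal replicates 4 to 6 the fat body sums (1510 to 2740 CPM) overlapped those at 6 h. The antenna and proboscis sums (376 to 436 CPM) were above them and the muscle sums (354 to 545 CPM) below them. The 12 neuron markers overlapped in both genotypes, at 9210 to 11200 CPM at 6 h and 8720 to 12500 CPM in basal replicates 1 to 3. The 18 retina markers overlapped too, at 28500 to 31100 CPM against 30600 to 42300 CPM in control and 21600 to 34700 CPM against 30100 to 44000 CPM in *Mettl3* RNAi. So did the 23 midgut markers, at 1290 to 2430 CPM against 1500 to 2210 CPM and 84.3 to 805 CPM against 85.7 to 950 CPM. In control HS replicates 4 to 6 the midgut sum was as low as 54.3 CPM. In control basal replicates 4 to 6 it was 55 to 383 CPM, below the control 6 h sums. The retina sums of basal replicates 4 to 6 lay above those at 6 h, at 42100 to 49100 CPM in control and 40600 to 62600 CPM in *Mettl3* RNAi. The neuron sums did so in control (12100 to 13300 CPM) and overlapped in *Mettl3* RNAi (10900 to 11600 CPM). The part of all these sums in the results was not tested. With *Mettl3* RNAi basal replicates 4 to 6 in place of 1 to 3, 56 genes met the rule, 26 of them among the 42. Without its replicate 1 they were 48, 35 of them among the 42, and without its replicate 3 they were 47, 40 of them among the 42. With basal and HS replicates 4 to 6 of both genotypes in place of 1 to 3, 71 genes met the rule and 22 of the 42 did so.

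The stretches before the annotated start of CG4020, Sgsh and scf are shown because these genes had large rises in both genotypes and lie at different levels. They are RefSeq sequence of dm6, read 5′ to 3′ on the strand of the gene and ending at the base before the annotated start. CG4020 is on the forward strand, with chrX:5905496-5905745 shown, Sgsh on the reverse strand, with chr3R:18912923-18913172 shown, and scf on the forward strand, with chr3L:1298498-1298671 shown, where the neighbour Rabex-5 ends. Capitals mark TATAAA. Of the other motifs searched, such as the heat shock element, none matched within these stretches.
CG4020: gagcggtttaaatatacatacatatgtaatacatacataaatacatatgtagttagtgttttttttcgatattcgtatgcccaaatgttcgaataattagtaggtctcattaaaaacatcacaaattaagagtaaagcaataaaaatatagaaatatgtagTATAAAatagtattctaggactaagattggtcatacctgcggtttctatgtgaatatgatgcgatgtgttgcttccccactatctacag
Sgsh: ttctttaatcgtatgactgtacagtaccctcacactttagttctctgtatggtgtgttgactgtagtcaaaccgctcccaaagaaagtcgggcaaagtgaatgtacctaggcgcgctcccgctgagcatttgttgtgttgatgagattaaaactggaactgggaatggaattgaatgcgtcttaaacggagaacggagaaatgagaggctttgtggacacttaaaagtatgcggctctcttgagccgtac
scf: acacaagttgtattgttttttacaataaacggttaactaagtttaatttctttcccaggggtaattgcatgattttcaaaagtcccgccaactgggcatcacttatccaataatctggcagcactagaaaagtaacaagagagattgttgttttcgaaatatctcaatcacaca

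At 6 h the members had means between 0.43 and 163 CPM. The rise over basal replicates 1 to 3 had a median of 0.88 on the log2(mean CPM + 1) scale in control (0.51 to 2.91) and of 0.70 in *Mettl3* RNAi (0.51 to 2.64), and the smaller of both rises was in *Mettl3* RNAi for 30 members and in control for 12. After HS the median difference from basal was -0.04 in each genotype, and 28 members in control and 25 in *Mettl3* RNAi were below basal then. Just inside the threshold were wisp and CG42812, with smaller rises of 0.5066 and 0.5064, and just outside were CG13896 and CG17782, with 0.4957 and 0.4951. TMM factors put the median of all genes at 0.03 in control and 0 in *Mettl3* RNAi between basal and 6 h, and with library size alone it was 0.13 and 0.10 and 140 genes met the rule, all 42 members among them. Over all genes with counts, 5.98% had every 6 h library above every basal replicate 1 to 3 library in both genotypes. With edgeR across all genes, 3.86% of genes tested were higher at 6 h in control and 0.892% in *Mettl3* RNAi at an adjusted p under 0.05, and 35 of 42 and 23 of 41 members had such a value, which the choice of the members made likely and from which nothing is read. Of the members, 37 code for proteins and 5 are noncoding RNAs, against 79.6% and 14.3% of all genes matched to the annotation.

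**Figure D1:**
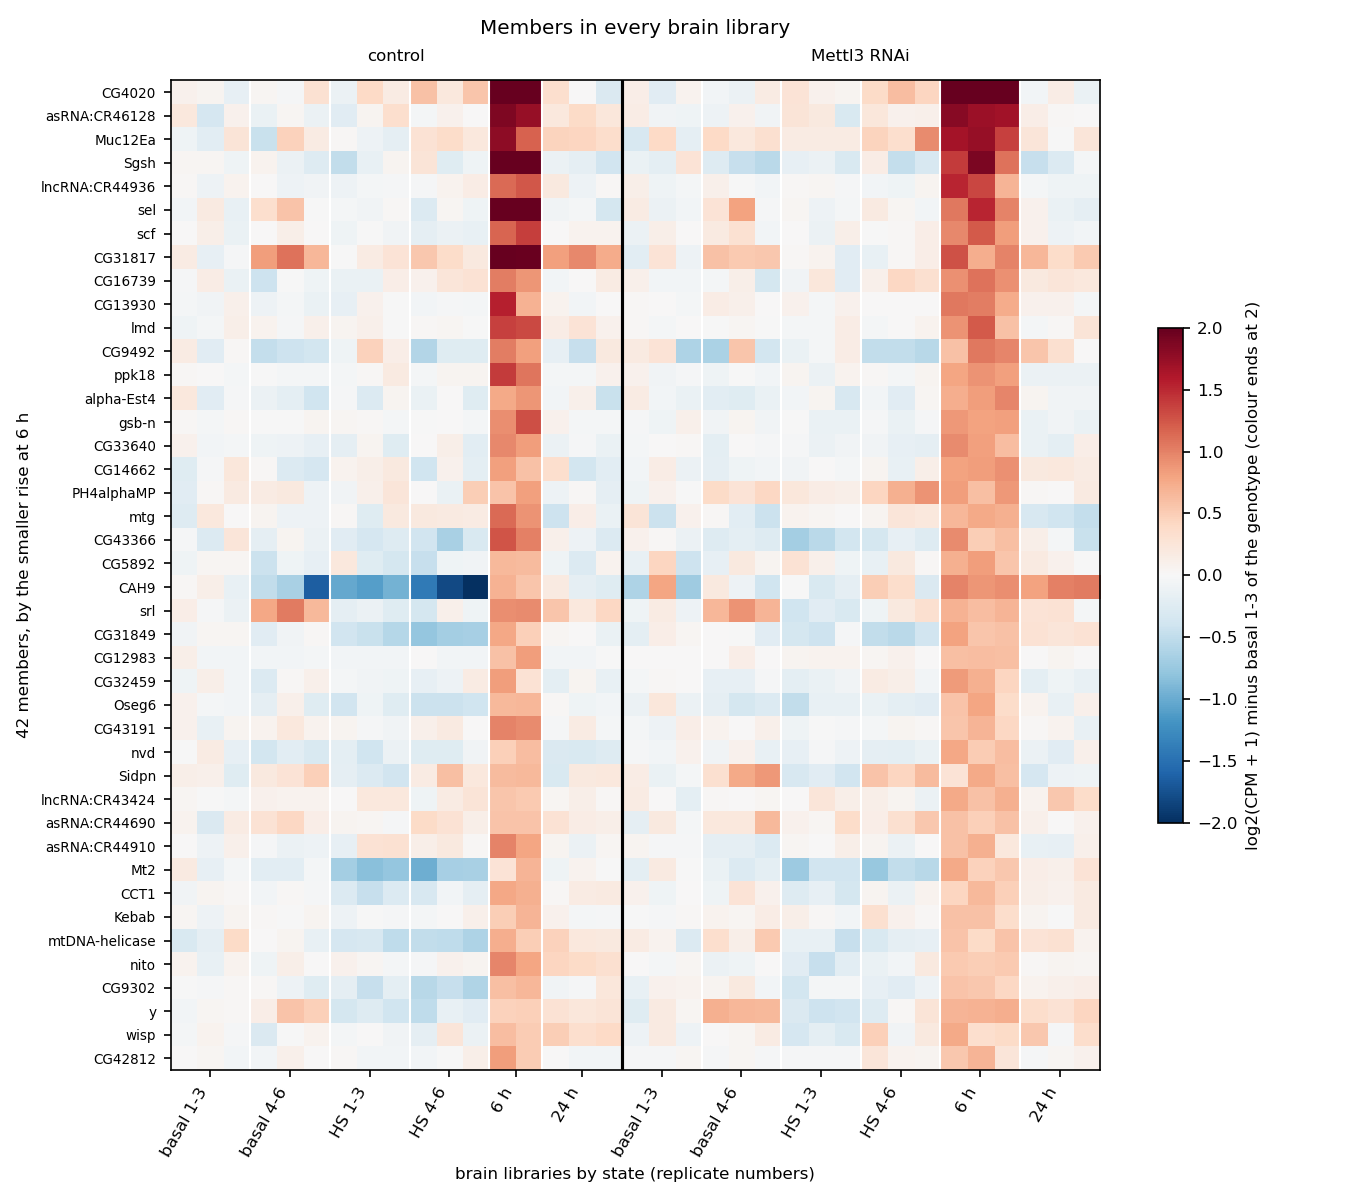
Difference of log2(CPM + 1) from the mean of basal replicates 1 to 3 of the same genotype for the 42 members (lines, in order of the smaller rise) in the 35 brain libraries of control and Mettl3 RNAi flies (columns), with the colour ending at 2. Red columns at 6 h reflect the choice of the members, the 24 h columns are pale for most members, and nito, y, srl, wisp, CAH9 and CG31817 keep some colour there in one or both genotypes.

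The member with the largest rise was CG4020, which lies on chromosome X at 5905746 to 5908001 and is annotated by identifier only. Its level in control brains was 0.998, 0.959 and 0.678 CPM in basal replicates 1 to 3, 13 and 12.7 CPM at 6 h, and 1.38, 0.892 and 0.544 CPM at 24 h. In *Mettl3* RNAi brains it was 0.84, 0.442 and 0.766 CPM in basal replicates, 11.6, 8.7 and 7.96 CPM at 6 h, and 0.628, 0.868 and 0.535 CPM at 24 h. All 5 libraries at 6 h lay far above all others of this gene in brains, the mean at 6 h being 14.6 times basal in control and 13.8 times in *Mettl3* RNAi, and the 24 h libraries overlapped the basal ones. Of 12 other settings of the rule (other scaling, pseudocounts, a minimum level, replicates left out or replaced), CG4020 met 6, and it did not meet the rule with RLE scaling, with a pseudocount of 0.5 or with basal and HS replicates 4 to 6. In replicates 4 to 6 its mean was higher after HS than in basal brains, at 1.59 against 1.03 CPM in control and 1.35 against 0.687 CPM in *Mettl3* RNAi. Muc12Ea, a mucin gene on chromosome X, was at 1.35, 1.17 and 1.99 CPM in basal control brains and at 7.68 and 4.7 CPM at 6 h. In *Mettl3* RNAi it went from 0.24, 1.05 and 0.365 CPM to 3.9, 4.18 and 2.99 CPM. Every 6 h library was above every other brain library of the same genotype, and the control libraries were above those of *Mettl3* RNAi at 6 h.

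Sgsh, sel and scf were among the 7 members with the largest smaller rise. Sgsh, the lysosomal sulfohydrolase that helps degrade heparan sulfate (chromosome 3R, 18911053 to 18912922), was at 5.25, 5.25 and 4.71 CPM in basal control brains, 25.7 and 31 CPM at 6 h, and 4.62, 4.34 and 3.68 CPM at 24 h. In *Mettl3* RNAi brains it was at 4.88, 4.62 and 6.82 CPM, then at 15.9, 22.7 and 12.7 CPM, and at 24 h at 3.69, 4.34 and 5.24 CPM. The 6 h libraries thus lay apart from all others in both genotypes, those of control above those of *Mettl3* RNAi, and the level was back among the basal values at 24 h or below them. Its 6 h mean was 5.59 times basal in control and 3.14 times in *Mettl3* RNAi.

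Seele (sel), a protein of the endoplasmic reticulum known for its part in dorsoventral patterning of the embryo, lies on chromosome 2R at 10050862 to 10052167. It was at 8.16, 9.87 and 7.62 CPM in basal control brains, at 65 and 40.6 CPM at 6 h and at 8.09, 8.27 and 6.49 CPM at 24 h. In *Mettl3* RNAi brains it was at 9.88, 7.99 and 8.39 CPM, at 19.2, 27.1 and 18.5 CPM, and at 9.3, 7.89 and 7.65 CPM. Both control libraries at 6 h were above the 3 of *Mettl3* RNAi, so that the same gene was 6.17 times basal in control and 2.47 times in *Mettl3* RNAi. The calcium-binding EF-hand protein scf (chromosome 3L, 1298672 to 1300389) had the highest level of all members, with 67, 72.8 and 60.6 CPM in basal control brains, 151 and 176 CPM at 6 h and 67.3, 70.4 and 70.2 CPM at 24 h. In *Mettl3* RNAi it was at 55.9, 65.9 and 61 CPM, at 120, 144 and 110 CPM, and at 64.7, 56.6 and 58.9 CPM. Basal, HS and 24 h libraries of scf lay together and the 6 h libraries above them. Per kilobase of exon, scf was also the highest at 6 h in control (102 CPM per kb), followed by y (57.9 CPM per kb), sel (52.2 CPM per kb), CCT1 (22.1 CPM per kb) and Sidpn (21.9 CPM per kb).

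**Figure D2:**
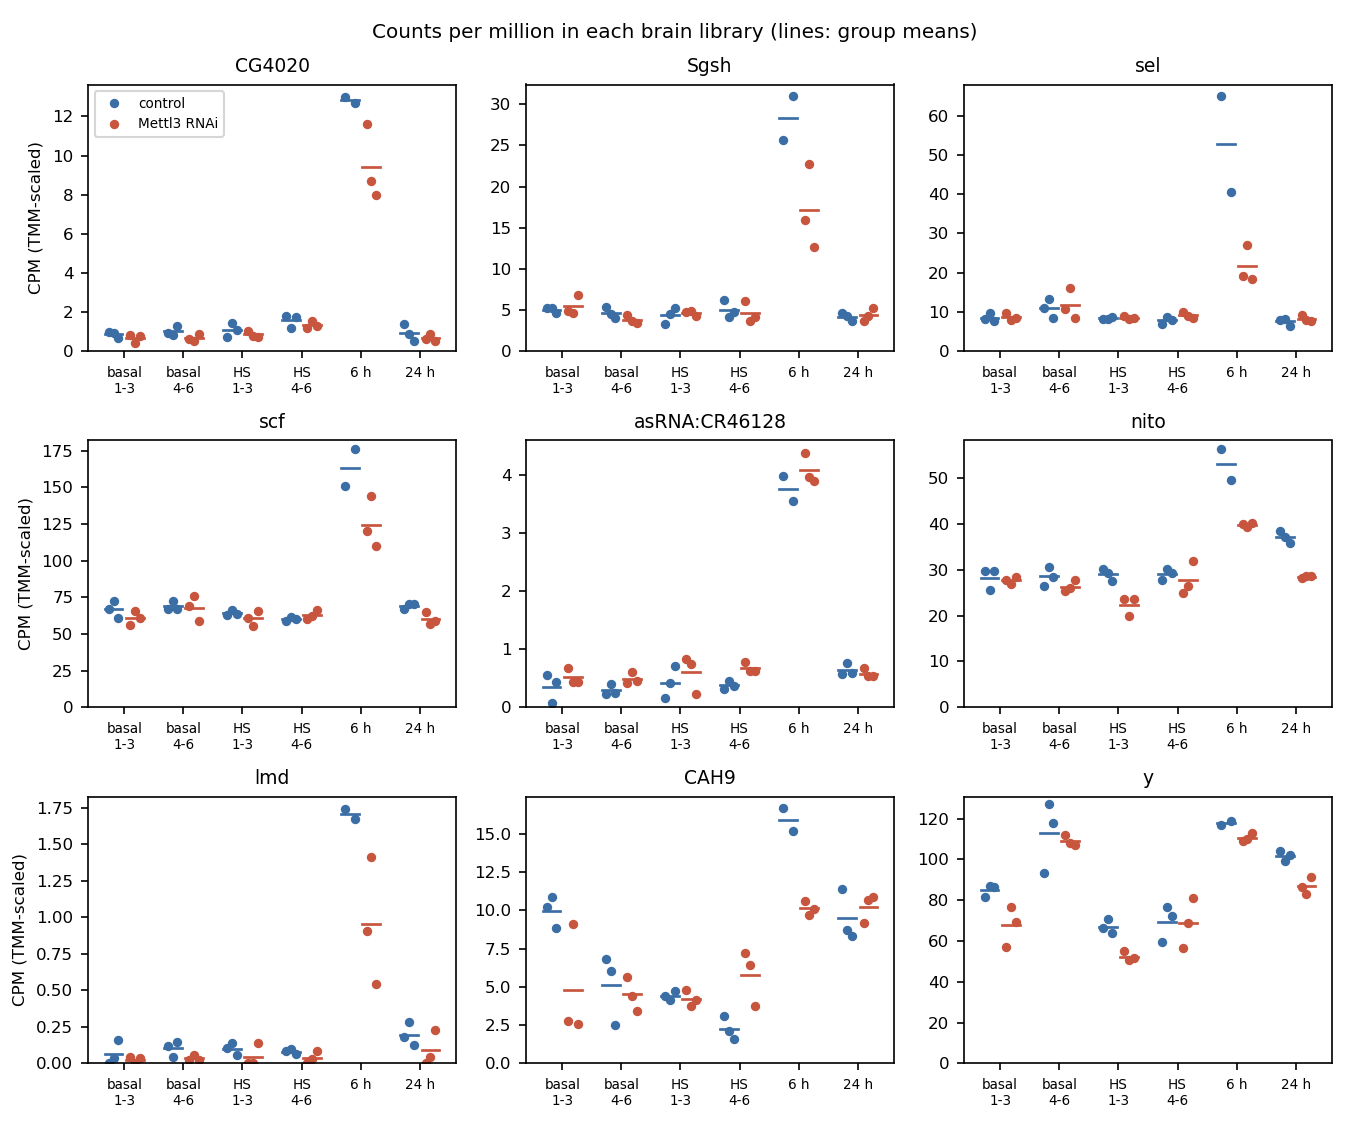
CPM of 9 members in each brain library of control (blue) and Mettl3 RNAi (red) flies by state, with replicates 1 to 3 and 4 to 6 of basal and HS apart, points for libraries, lines for group means and an axis from 0 for each gene. CG4020, Sgsh, sel, scf, asRNA:CR46128 and lmd stand out at 6 h alone, nito stays above basal at 24 h in control, CAH9 stays at its 6 h level at 24 h in Mettl3 RNAi, and y at 6 h overlaps basal replicates 4 to 6.

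The members include several regulators of transcription and RNA. nito, the m6A writer subunit, was at 29.6, 25.5 and 29.7 CPM in basal control brains, at 56.3 and 49.5 CPM at 6 h and at 38.4, 37 and 35.7 CPM at 24 h. In *Mettl3* RNAi it was at 27.7, 26.8 and 28.4 CPM, at 40, 39.2 and 40.1 CPM, and at 28.1, 28.7 and 28.5 CPM. The control libraries at 6 h were above those of *Mettl3* RNAi, and at 24 h the control libraries were still above basal while those of *Mettl3* RNAi were among or just above the basal ones. lmd, a Gli-type zinc finger factor known from muscle precursors, was at 0, 0.0355 and 0.16 CPM in basal control brains and at 1.74 and 1.67 CPM at 6 h. In *Mettl3* RNAi it went from 0.04, 0 and 0.0365 CPM to 0.907, 1.41 and 0.546 CPM. In no other brain library of either genotype was it above 0.284 CPM. gsb-n, a paired-class homeobox gene of the embryonic nervous system, was likewise at 0.0434, 0 and 0.0399 CPM in basal control brains and at 0.959 and 1.5 CPM at 6 h, and in *Mettl3* RNAi it went from 0.08, 0.034 and 0.182 CPM to 0.998, 0.911 and 0.931 CPM. Sidpn, a basic helix-loop-helix gene related to deadpan, was at 33.1, 32.6 and 25.5 CPM and then at 47.9 and 48.1 CPM in control. srl, the fly homologue of the coactivator PGC-1, was at 7.64, 6.82 and 6.3 CPM in basal replicates 1 to 3 of control and at 14.1 and 14.2 CPM at 6 h, but at 12.6, 15.2 and 11.4 CPM in basal replicates 4 to 6. For srl the 6 h libraries lie within the range of the second basal set.

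CG31817, annotated by identifier only, was at 2.17, 1.53 and 1.8 CPM in basal control brains, at 13.5 and 10.2 CPM at 6 h and at 4, 4.5 and 3.73 CPM at 24 h. In *Mettl3* RNAi it was at 6.2, 9.04 and 6.75 CPM, at 19.1, 12.8 and 15.6 CPM, and at 12.2, 9.71 and 11 CPM. Basal replicates 4 to 6 were at 4.06, 5.01 and 3.48 CPM in control and 11.5, 11 and 11.1 CPM in *Mettl3* RNAi, which the 24 h libraries overlapped. The 6 h mean was 6.49 times basal replicates 1 to 3 and 2.84 times replicates 4 to 6 in control. In *Mettl3* RNAi it was 2.16 and 1.41 times. This gene differs from the others above in its higher level in *Mettl3* RNAi in all states but 6 h, where the genotypes overlapped. CAH9, a carbonic anhydrase, was at 10.2, 10.9 and 8.86 CPM in basal control brains, at 4.39, 4.13 and 4.73 CPM after HS and at 16.7 and 15.2 CPM at 6 h, so it was lower after HS and higher at 6 h. In *Mettl3* RNAi its basal replicates were at 2.8, 9.11 and 2.55 CPM, its 6 h libraries at 10.6, 9.69 and 10.1 CPM and its 24 h libraries at 9.17, 10.7 and 10.9 CPM. The other coding members among the 25 with the largest smaller rise had lower levels or smaller rises. They are CG16739, CG13930, CG9492 (a dynein heavy chain, annotated as Dhc1), ppk18 (a channel of the DEG/ENaC family), alpha-Est4 (a carboxylesterase of the alpha-esterase cluster), CG33640, CG14662, PH4alphaMP (a prolyl 4-hydroxylase subunit), mtg (mind the gap, a secreted protein of the synaptic matrix), CG43366, CG5892, CG31849 (an N-acetylglucosaminyltransferase, annotated as Mgat3) and CG12983. Of these CG31849 had the highest level, with 11.8, 12.9 and 12.8 CPM in basal control brains and 22 and 17.7 CPM at 6 h, and CG12983 the lowest, with 0.569 and 0.855 CPM at 6 h.

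The members fall into 3 ranges of level, with limits set after the values were seen. In 12 members the mean was under 0.5 CPM in every other brain state, and at 6 h it was 0.662 to 1.70 CPM in control and 0.43 to 1.49 CPM in *Mettl3* RNAi. These include lncRNA:CR44936, lmd, ppk18, gsb-n, CG33640, CG13930 and CG12983. Their counts are small: ppk18 had 1, 1 and 0 counts in basal control libraries and 48 and 27 counts at 6 h, and CG12983 had 0 counts in each of the 3 basal *Mettl3* RNAi libraries and 23, 13 and 16 counts at 6 h. No fold is given for them. In 13 members some other brain state had a mean of 5 CPM or more, and their 6 h means were 10.9 to 163 CPM in control, while the remaining 17 lay between.

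Noncoding RNAs are 5 of the members. asRNA:CR46128 was at 0.564, 0.071 and 0.439 CPM in basal control brains and at 3.98 and 3.55 CPM at 6 h. In *Mettl3* RNAi it went from 0.68, 0.442 and 0.438 CPM to 4.38, 3.97 and 3.89 CPM, and the genotypes overlapped at 6 h. It lies on chromosome 3R at 7537842 to 7541279, opposite to and overlapping alpha-Est4, which is a member too (0.54 CPM in the mean of basal control brains, 1.72 CPM at 6 h), and alpha-Est3, which is not (6.7 and 7.66 CPM). The library kits mark strand, but whether the counting used it is not given in the sources used here. Over the 774 bp that asRNA:CR46128 and alpha-Est4 share, reads may thus have been left out or given to the wrong gene, and the same limit holds for the 17 members in all that overlap a gene on the opposite strand. lncRNA:CR44936 had 2, 0 and 3 counts in basal control brains and 38 and 36 counts at 6 h. It lies 846 bp downstream of unc-45, which codes for a co-chaperone of Hsp90 and myosin (20.2 CPM in basal control brains and 29.6 CPM at 6 h), on the same strand. CG14662 and lncRNA:CR43424 are neighbours on the same strand, 265 bp apart, and both are members. Of the nearest gene before and the nearest after each member, overlapping genes left out, 60 that are not members lie within 2000 bp. In 12 of these 60 every 6 h library was above every basal replicate 1 to 3 library in both genotypes, where 5.98% of all genes met this. Overlapping genes and genes beyond the nearest were not counted. On the same strand as the member it was met by 9 of 31, among them unc-45, CG42266 beside CG31817, PH4alphaNE1 beside PH4alphaMP and CG15864 beside mtg, and on the opposite strand by 3 of 29. These neighbours are named after their values were seen.

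At 6 h both control libraries lay above all 3 of *Mettl3* RNAi in 23 members and all 3 of *Mettl3* RNAi above both of control in 3 (CG14662, PH4alphaMP and lncRNA:CR43424), while 16 overlapped. Over all genes the shares are 17% and 14%. The members had to pass the rule in both genotypes, and the rise was used to choose them, so this is given without a test. These are levels at 6 h and not rises. CG16739 was apart in basal replicates 1 to 3 already (3.23 to 4.15 CPM in control, 1.75 to 2.08 CPM in *Mettl3* RNAi), while Sgsh, sel and nito overlapped there. So was y (81.5 to 86.8 CPM and 57.1 to 76.7 CPM), with the larger rise in *Mettl3* RNAi (0.70 against 0.51). Of all members, 30 had the smaller rise in *Mettl3* RNAi and 12 in control. The widest gap by fold was that of sel, at 52.8 ± 17.3 CPM (SD, n = 2) in control and 21.6 ± 4.75 CPM (SD, n = 3) in *Mettl3* RNAi. Sgsh was at 28.4 ± 3.78 CPM (SD, n = 2) and 17.1 ± 5.1 CPM (SD, n = 3).

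**Figure D3:**
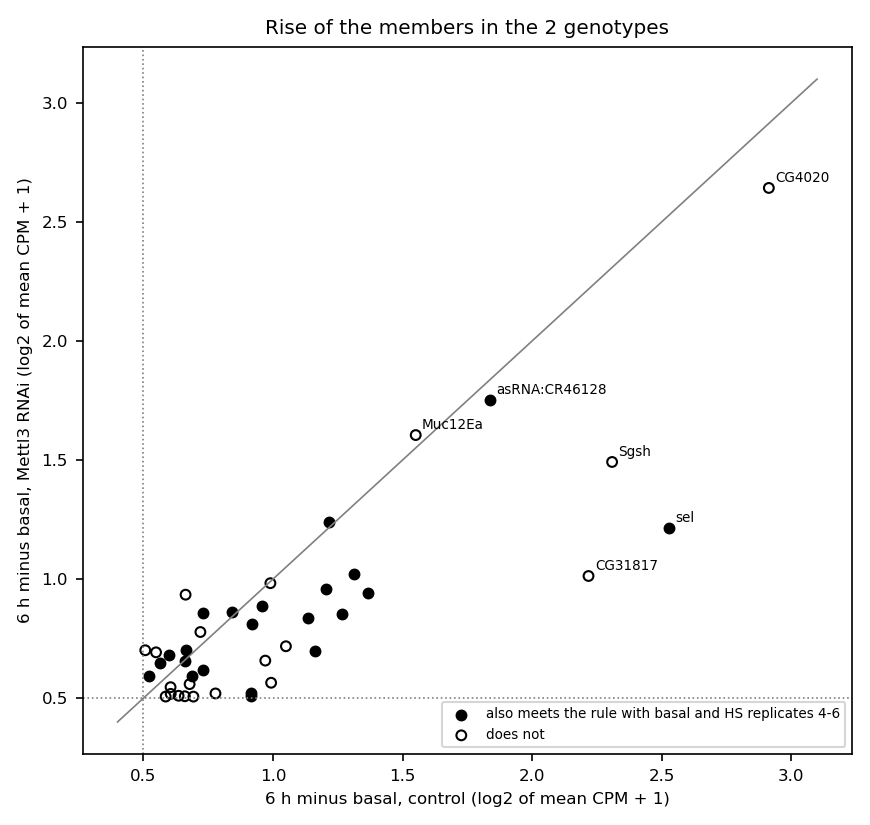
Rise from basal replicates 1 to 3 to 6 h on the log2(mean CPM + 1) scale in control (x axis) and Mettl3 RNAi (y axis) for the 42 members, with the threshold of 0.5 dotted, equal rises on the line, and members that also meet the rule with basal and HS replicates 4 to 6 filled. Of the points 30 lie below the line, sel, CG31817 and Sgsh farthest, and 22 are filled.

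At 24 h most members were near the level of basal replicates 1 to 3. The rise chose the members, so that a lower value at 24 h is in part fixed by the choice, and the shares left are a description with no test. The share of the rise that remained over basal replicates 1 to 3 had a median of 0.328% in control and of 6.21% in *Mettl3* RNAi, and it was under 10% for 33 and 27 members. Every 6 h library was above every 24 h library in 42 members in control and in 40 in *Mettl3* RNAi, the exceptions being CAH9 and wisp, where 18.5% and 11.4% of all genes with counts met this, and nothing is read from the count. In control, 6 members kept 25% or more of the rise, with wisp, a cytoplasmic poly(A) polymerase, at 69.8%, y, a pigmentation gene, at 50.0%, mtDNA-helicase, the replicative helicase of mitochondrial DNA, at 43.0%, nito at 35.6% and srl at 34.5%. In *Mettl3* RNAi, 8 members did so, with CAH9 at 103%, wisp at 56.4%, y at 44.8% and CG31817 at 42.9%. The 24 h libraries of CG31817 overlapped basal replicates 4 to 6 in both genotypes. Against basal replicates 4 to 6, which the choice did not use, 28 members in control and 29 in *Mettl3* RNAi passed the filter on low counts, and differences from edgeR are given on the log2 scale. These basal libraries held more counts than the 24 h libraries, so recovery and replicate set cannot be told apart in this test. In control 1 member was called by edgeR, nito, which rose by 0.39 (SE 0.07, adjusted p = 0.032, edgeR), where 4.7% of all genes tested were called in either direction. In *Mettl3* RNAi 3 rose and 3 fell, where 20.1% of genes were called. CAH9 rose by 1.20 (SE 0.18, adjusted p = 0.00816), and CG31849 and Mt2 rose, while Sidpn fell by 0.85 (SE 0.16, adjusted p = 0.0146) and srl and y fell. The mean of y was 67.7 CPM in basal replicates 1 to 3, 87 CPM at 24 h and 109 CPM in basal replicates 4 to 6. For srl these means were 7.97, 9.19 and 14.1 CPM. Both genes thus fell against replicates 4 to 6 but lay above replicates 1 to 3. Mt2 lost its call with DESeq2. With all 6 basal replicates as reference none of these calls remained by edgeR in either genotype (nito at adjusted p = 0.17 and CAH9 at 0.291). The call of nito was also lost when any one of the 24 h control libraries or basal replicate 6 was left out (adjusted p from 0.0613 to 0.128). Without *Mettl3* RNAi 24 h replicate 1 or 2 only 2 calls remained in that genotype, CAH9 and y, and without replicate 3 they were 3, with Sidpn. Mt2 lost its call whichever library was left out.

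Basal replicates 4 to 6 offer a second reference for the 6 h libraries. Every 6 h library was above each of these basal libraries in 40 members in control, in 37 in *Mettl3* RNAi and in 37 in both, where 7.92% of all genes met this in both, and since the same 6 h libraries chose the members the count is no independent test. The exceptions were srl, Sidpn, asRNA:CR44690, mtDNA-helicase and y. For y, the 6 h libraries of *Mettl3* RNAi were at 109, 110 and 113 CPM and basal replicates 4 to 6 at 112, 108 and 107 CPM, against 57.1, 76.7 and 69.2 CPM in basal replicates 1 to 3. Against all 6 HS replicates, every 6 h library was higher in 42 members in control and in 37 in *Mettl3* RNAi (25.2% and 21% of all genes with counts). Against all other brain libraries of the own genotype this held in both for 33 members, where 1.39% of all genes met it, and the 6 h, HS and basal values of the rule are part of these counts. Of the 12 other settings of the rule, alpha-Est4, lncRNA:CR44936, scf and sel met all, and asRNA:CR44690 met the fewest, 5.

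Right after HS the members can be tested in libraries that the rule did not use. In control brains of replicates 4 to 6, 30 members passed the filter on low counts, 0 rose by edgeR (15% of all genes tested rose) and 7 fell (25% fell), with a median of 0.06 among the members and of -0.03 among all genes. Before adjustment 4 members were higher and 12 lower at p under 0.05, and with DESeq2 0 rose and 7 fell, 6 of them the same, with CAH9 in place of CG31817. No share of all genes is set beside these counts, and nothing is read from them. Among the called members the largest decreases were of Mt2, a methyltransferase of the Dnmt2 type, by 1.68 (SE 0.44, adjusted p = 0.0231), mtDNA-helicase by 1.23 (SE 0.24, adjusted p = 0.00865), srl by 0.99 (SE 0.15, adjusted p = 0.00372) and y by 0.66 (SE 0.14, adjusted p = 0.0104). CG31849, CG31817 and CG9302 fell as well. CAH9 and CG43366 were at -1.12 and -1.14 without passing the test (adjusted p = 0.0739 and 0.0995, edgeR). The call of CG31817 was lost with DESeq2, with RLE scaling and when HS replicate 5 or 6 or basal replicate 4 or 5 was left out, that of Mt2 without basal replicate 5 or 6, and that of CG9302 without HS replicate 6. Mt2, CG9302 and y, and members given here only as called, are named after their values were seen. In *Mettl3* RNAi brains of replicates 4 to 6, 1 of 30 rose (16.1% of all genes) and 6 fell (23.3%). The one was CG4020, which rose by 1.02 (SE 0.25, adjusted p = 0.0194), from 0.622, 0.551 and 0.889 CPM to 1.19, 1.57 and 1.27 CPM, still far below its level at 6 h. The members called lower in control were called here too, except CG9302, with mtDNA-helicase lower by 1.12 (SE 0.26, adjusted p = 0.0151). With the replicate number as a block, which pairs these samples, 5 were called, without CG31849 and Mt2, and without HS or basal replicate 5 there were 4, without CG31849, Mt2 and CG4020. CG4020 lost its call without basal replicate 4 too, and Mt2 lost it with DESeq2 and whichever library was left out. The shares that fell are near those of all genes, those that rose lie below them, and a low value after HS in other libraries was part of the choice.

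In the Ythdc experiment 29 members could be tested in control brains, where 0 rose by edgeR (5.22% of all genes) and CG31849 fell by 0.48 (13.5% of all genes fell). Before adjustment 2 were higher and 4 lower at p under 0.05, and with DESeq2 0 rose and 2 fell. These counts too have no share of all genes beside them, and nothing is read from them. The call of CG31849 was lost when any one of the libraries except basal replicate 8 was left out (adjusted p from 0.0823 to 0.114), and without that one 4 members were called. In *Ythdc* RNAi brains 1 of 32 rose (25.8%) and 10 fell (32.8%), with a median of -0.14 among members and -0.01 among all genes. Sidpn fell by 1.00 (SE 0.11, adjusted p = 0.00034), Mt2 by 1.65 (SE 0.37, adjusted p = 0.00826) and mtDNA-helicase by 1.01 (SE 0.18, adjusted p = 0.00261). CG4020 rose by 0.55 (SE 0.18, adjusted p = 0.0355), a call that was lost with DESeq2 (adjusted p = 0.12) and when HS replicate 2 or 3 or basal replicate 1 or 3 was left out (adjusted p from 0.0736 to 0.111). Without basal replicate 3 the members called were 7, all lower. Muc12Ea, CG31817, CAH9, srl, CG31849, CG9302 and y fell too, of which Muc12Ea and srl lost the call with DESeq2 and, like CAH9, when some one library was left out.

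In head inputs of control flies 3 of 29 rose (16.2%) and 4 fell (19.6%), and in those of *Mettl3* RNAi 5 of 31 rose (19%) and 4 fell (21.5%). CG4020 rose in both, by 0.89 (SE 0.26, adjusted p = 0.0216) and by 1.25 (SE 0.33, adjusted p = 0.0112), and scf rose in both, by 0.23 (SE 0.06, adjusted p = 0.0135) and 0.33 (SE 0.08, adjusted p = 0.00718). CCT1, an enzyme of phosphatidylcholine synthesis, rose in control heads by 0.24 (SE 0.06, adjusted p = 0.0154), and sel (by 0.29), gsb-n and mtg rose in *Mettl3* RNAi heads. y fell in both, by 0.67 and 0.74 with SEs of 0.11 and 0.10, as did CG31849 and Mt2, while mtDNA-helicase fell in control and CG31817 in *Mettl3* RNAi heads. In control, CG4020 lost its call without HS NEB replicate 2, without basal SYS replicate 2 and with the replicate number as a block. CCT1 lost it without basal SYS replicate 2 (adjusted p = 0.0878), CG31849 without HS NEB replicate 2 or 3 (0.0526 and 0.0564), and mtDNA-helicase with DESeq2 and in 7 of the 10 cases of a library left out. Without HS NEB replicate 2 the members called in control were 4. In *Mettl3* RNAi heads Mt2, gsb-n and mtg each lost the call when some one library was left out. With the SYS inputs alone, 2 pools a group, 0 members were called in control and 1 in *Mettl3* RNAi, and with the NEB inputs alone 6 and 8 were called, but neither CG4020 nor scf was in either genotype (scf at adjusted p = 0.0614 and 0.0674).

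**Figure D4:**
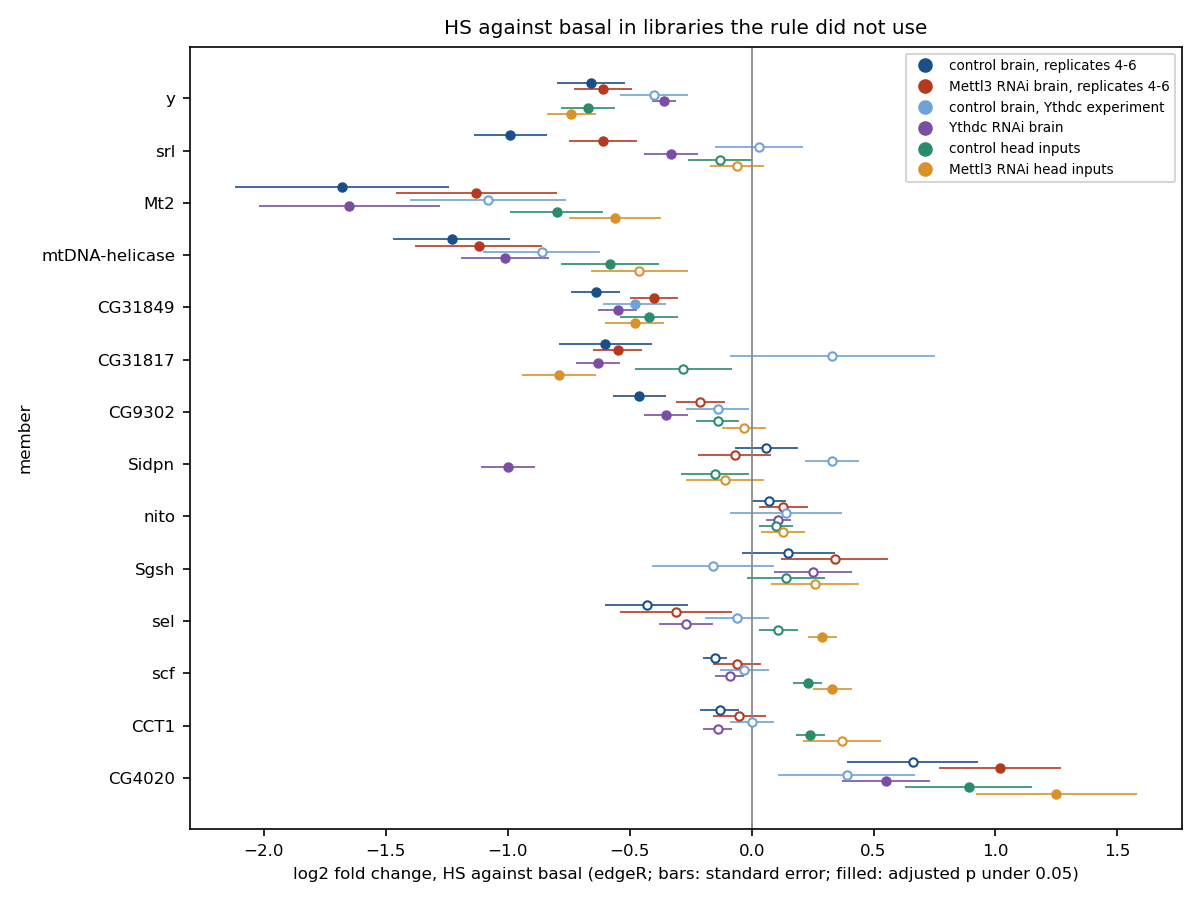
log2 fold change of HS against basal, with standard errors, for 14 members in the 6 comparisons that use libraries outside the rule, filled where the adjusted p was under 0.05. Mt2, mtDNA-helicase, CG31849 and y lie below 0 in each comparison, CG4020 lies above 0 in each, and nito and Sgsh are filled in none.

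The genotypes were compared in libraries outside the rule. At 24 h, 29 members could be tested and 2 were higher in *Mettl3* RNAi than in control (5.33% of all genes) and 4 lower (3.86%). CG31817 was higher by 1.44 (SE 0.11, adjusted p = 0.000429) and lncRNA:CR43424 by 2.02 (SE 0.42, adjusted p = 0.0245), the latter on 12, 26 and 22 counts in the *Mettl3* RNAi libraries and 4, 6 and 4 in those of control. Muc12Ea was lower by 1.63 (SE 0.22, adjusted p = 0.00467), CG16739 by 0.68 (SE 0.13, adjusted p = 0.017), nito by 0.37 (SE 0.05, adjusted p = 0.0054) and y by 0.21 (SE 0.04, adjusted p = 0.0136). The call of nito held with every library left out in turn (adjusted p up to 0.0262), while CG16739 lost it with DESeq2 (adjusted p = 0.0639) and when any library except control replicate 1 was left out (0.0523 to 0.0727). The call of lncRNA:CR43424 was lost when any library except *Mettl3* RNAi replicate 1 was left out, and that of y without *Mettl3* RNAi replicate 1 or 2. Without *Mettl3* RNAi replicate 2 the members called were 3. In basal replicates 4 to 6, 1 of 30 members was called, where 1.25% of all genes were. It was CG31817, higher in *Mettl3* RNAi by 1.42 (SE 0.14, adjusted p = 0.0188), and with the replicate number as a block the value was 1.43 and the adjusted p 0.118, and without *Mettl3* RNAi replicate 4, 5 or 6 it was 0.0768, 0.124 or 0.109. After HS it was higher by 1.45 (SE 0.15, adjusted p = 0.0166) and CG16739 lower by 0.82 (SE 0.15, adjusted p = 0.0473), 2 of 30 members where 2.88% of all genes were called, and CG16739 lost its call whichever library was left out (adjusted p from 0.0738 to 0.157). CG31817 lost it without *Mettl3* RNAi HS replicate 5 or control HS replicate 4 or 6 (0.0972, 0.0707 and 0.0724). The fold of CG31817 in *Mettl3* RNAi over control was 2.68 in basal brains, 2.74 after HS and 2.71 at 24 h. In *Ythdc* RNAi, Sidpn was higher than in control in basal brains by 1.13 (SE 0.14, adjusted p = 0.0148) and CCT1 by 0.44 (SE 0.08, adjusted p = 0.0346), 2 of 31 members where 3.89% of all genes were called. After HS, CCT1 alone was called by edgeR, higher by 0.33 (SE 0.07, adjusted p = 0.0422), 1 of 30 where 5.3% were. Without *Ythdc* RNAi basal replicate 3 or control basal replicate 9 neither gene was called in basal brains (Sidpn at adjusted p = 0.0874 and 0.0711, CCT1 at 0.141 and 0.132), and without control basal replicate 8 the members called were 5. CCT1 lost its call after HS whichever library was left out (0.0653 to 0.119).

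The m6A-IP was made from heads without recovery, and basal heads are used here. Reads were counted over all exons of a gene. The ratio to input is thus a value for the whole gene and can miss a mark on a short stretch. Of 32 members that could be tested in basal control heads with the SYS antibody, 4 were higher in the m6A-IP than in the input (36.2% of all genes) and 9 lower (37.7%), with a median of -0.27 among members and -0.05 among all genes. Enriched were CG16739 by 1.44 (SE 0.19, adjusted p = 3.72e-07), scf by 0.86 (SE 0.06, adjusted p = 2.09e-12), Sidpn by 0.35 (SE 0.08, adjusted p = 0.000268) and nito by 0.35 (SE 0.07, adjusted p = 7.23e-05). Lower were y and Sgsh, by 1.00 each (SE 0.08 and 0.18), sel by 0.65 (SE 0.10, adjusted p = 1.69e-06), alpha-Est4, CAH9, CG31849, asRNA:CR44690, CCT1 and CG9302. Thus scf and sel, which are both high at 6 h, lie on opposite sides. Without the block of the RNA pools Sidpn, CAH9, CCT1 and alpha-Est4 lost the call, and with DESeq2 CG31849 and alpha-Est4 did. With the NEB antibody 27 of 30 members were called, 9 higher (41.9% of all genes) and 18 lower (42.5%), with scf (1.40), CG16739 (1.26), Sidpn (0.97) and nito (0.58) again above the input and sel (-1.29), Sgsh (-1.23) and y (-1.91) below it. Muc12Ea, lmd, CG9492, mtg and srl were called higher with NEB and not with SYS. In the test of whether the ratio of m6A-IP to input differs between *Mettl3* RNAi and control heads, 0 of the 32 were called by edgeR, where 10.3% of all genes were, with 1 member higher and 2 lower at p under 0.05 before adjustment, 0 called by DESeq2 and 1 called with NEB. The counts before adjustment, by DESeq2 and with NEB have no share of all genes beside them. The titles of the basal *Mettl3* RNAi m6A-IP samples in the main test name SYS and were used, while their antibody tag reads none. For scf the difference was 0.03 (SE 0.08, adjusted p = 0.844). In the SYS inputs of basal heads Mettl3 itself was at 1.53 and 1.77 CPM in *Mettl3* RNAi and at 7.14 and 7.45 CPM in control.

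**Figure D5:**
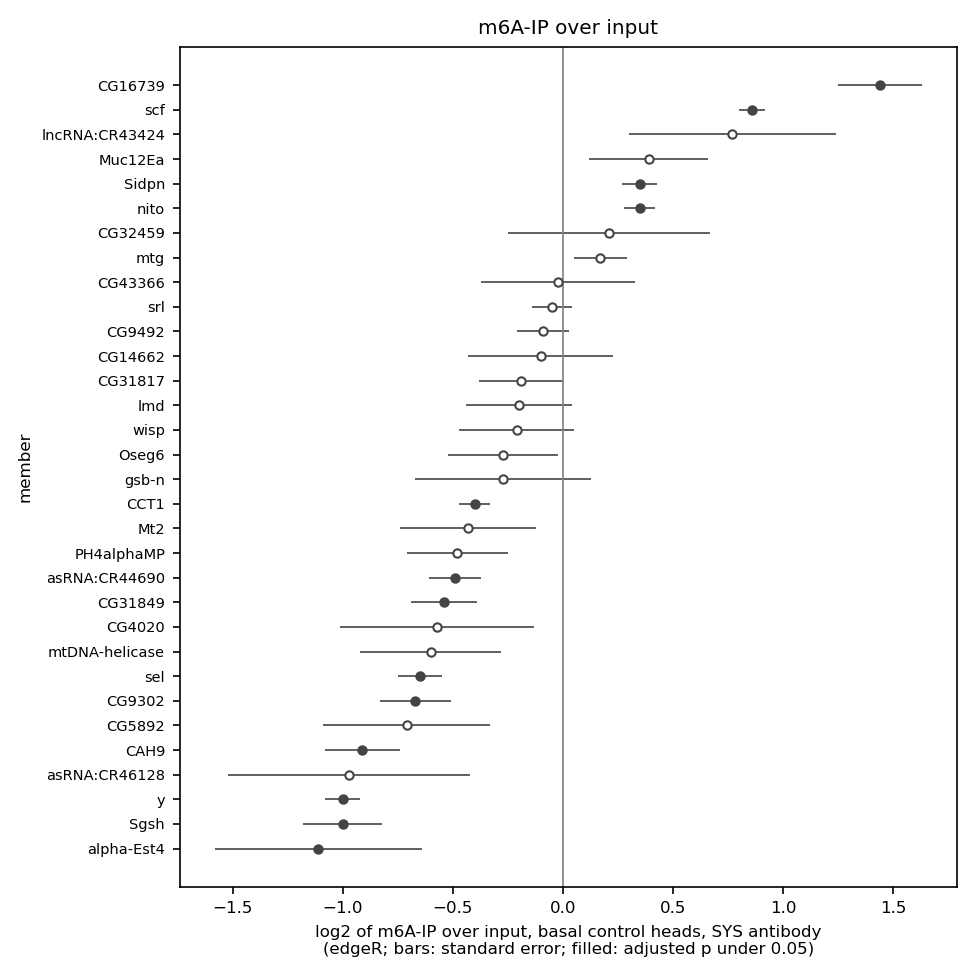
log2 of m6A-IP over input in basal control heads with the SYS antibody, with standard errors, for the 32 members that passed the filter on low counts, filled where the adjusted p was under 0.05. CG16739, scf, Sidpn and nito are filled to the right of 0 and 9 members, from CCT1 to alpha-Est4, to the left.

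Of the pathway lists examined, the members touch only the m6A machinery, through nito, besides the lists of noncoding RNAs. Of the other 9 genes of that list, which holds Mettl3 and its partners and readers, 0 were called at 6 h by edgeR in either genotype, with medians of 0.08 in control and 0.17 in *Mettl3* RNAi, and 1 and 4 were higher and 0 lower at p under 0.05 before adjustment. The share of all genes before adjustment is not given, and nothing is read from these last counts. The value of nito at 6 h was used to choose it, and its difference from these genes was not tested. None of the 24 heat shock chaperone genes is a member. At 6 h, 12 of 22 of them tested were still higher than basal in control (median 0.72), and 2 were higher and 1 lower in *Mettl3* RNAi (median -0.35). In that genotype Hsp68 was high in basal replicates 1 and 3, and the part of this in these values was not tested. Of 35 proteasome subunits, 28 were higher in control at 6 h (median 0.52) and none in *Mettl3* RNAi, where 1 was lower (median -0.37). No subunit is a member. Of all genes tested, 3.86% were higher at 6 h in control and 0.892% in *Mettl3* RNAi. The part of *Mettl3* RNAi basal replicates 1 and 3 in the proteasome values was not tested either.

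Motifs were searched in windows from 250 bases before to 50 after the annotated start, on both strands, in 42 members and in 17449 windows in all, and overlapping motifs were each counted. The inverted repeats of the heat shock element, GAANNTTC and TTCNNGAA, were in 3 and 2 member windows (7.14% and 4.76%, against 9.26% and 7.72% of all), with that of CG4020 lying past the start of the gene. The AP-1 site TGANTCA was in 4 (9.52% against 6.37%), those of sel, CCT1, nito and y. The DNA replication element TATCGATA, the forkhead site GTAAACA and the STAT site TTCNNNGAA were in 5 each (11.9%, against 7.66%, 8.64% and 9.16%). The antioxidant response element TGACNNNGC was in 4 (9.52% against 8.4%), the GATA site TGATAAG and the GAGA repeat GAGAGAG in 3 each (7.14%, against 6.61% and 5.59%), the E-box CACGTG in 2 (4.76% against 4.2%) and TATAAA in 20 (47.6% against 44.6%). The cAMP response element TGACGTCA and the composite site TGATGCAA were in none, where 0.413% and 0.791% of all windows held them. With so few windows these shares describe the members and no motif is set apart by them.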

How the data were processed

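Counts per gene are raw read counts that the authors made and deposited as one table of 17562 genes and 87 libraries. Per the authors, reads were trimmed with Trim Galore, mapped with STAR 2.7.3a to dm6 and counted over the exons of FlyBase genes by summarizeOverlaps (union mode). No normalization had been applied.

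The members and lists were chosen with earlier results of these data known. CPM used TMM factors, for the rule over its 17 libraries. Tests used edgeR 4.0.16 in R 4.3.3 (filterByExpr, minimum count 10, glmQLFit and glmQLFTest, two-sided) across all genes with Benjamini-Hochberg adjustment, called at an adjusted p under 0.05. Fold changes are log2. Head inputs had the antibody experiment as a term, and m6A-IP and input were paired by RNA pool. DESeq2 1.42.0, other scaling, no filter, the replicate block and each replicate left out were alternatives, and the fits were tested on simulated counts. Same-numbered samples deviated together in every pair in 2 of 9 comparisons, HS against basal in *Mettl3* RNAi replicates 4 to 6 (r from 0.244 to 0.659) and the genotypes in basal replicates 4 to 6 (0.19 to 0.372). Equal numbers there come from the labels only.

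Named are the 25 members with the largest smaller rise, members on a list, up to 3 called members per direction with a mean count of 50 or more, those at the threshold and the 5 highest per length. Gene positions and 17523 symbols were matched to the dm6 annotation, 2 members by synonym.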

Additional observations from a re-analysis of the deposited data

Results flagged for a closer look

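In each group of 4 to 10 libraries the highest or lowest value of a member was compared with the nearest of the others, for the 192 combinations of member and group with a mean of at least 1 CPM, and 16 had a gap above Dixon's 95% critical value, where chance gives about 1 in 20. Among control HS head inputs, SYS replicate 1 was far from the others for 4 members. There Sgsh was at 10.5 CPM (others 5.22 to 6.15 CPM), CG14662 at 2.88 CPM (1.36 to 1.58 CPM), mtg at 20.3 CPM (7.51 to 10.1 CPM) and y at 22.2 CPM (34.2 to 39.1 CPM). For CG9492, SYS replicate 2 was far above the others in 3 groups of head inputs, at 24.8 CPM in basal *Mettl3* RNAi (1.13 to 4.29 CPM), 14.1 CPM in control after HS (1.83 to 4.02 CPM) and 18.7 CPM in basal control (1.86 to 3.43 CPM). In that last library alpha-Est4 was low, at 0.621 CPM (1.67 to 1.9 CPM).

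In brains, Muc12Ea was at 2 CPM in *Mettl3* RNAi HS replicate 6 (0.74 to 1.11 CPM), sel at 16 CPM in *Mettl3* RNAi basal replicate 5 (7.99 to 10.8 CPM), CG31849 at 9.16 CPM in *Mettl3* RNAi HS replicate 3 (6.11 to 7.05 CPM) and wisp at 1.24 CPM in control basal replicate 4 (1.65 to 1.86 CPM). Oseg6 was at 0.74 CPM in *Mettl3* RNAi HS replicate 1 (1.08 to 1.22 CPM) and at 1.84 CPM in *Mettl3* RNAi basal replicate 2 (0.905 to 1.24 CPM). In *Mettl3* RNAi head inputs, mtDNA-helicase was at 2.01 CPM in NEB replicate 1 after HS (1.6 to 1.66 CPM) and nito at 46.9 CPM in basal NEB replicate 3 (34.6 to 36.5 CPM).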

How the results depend on the processing

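No direction was reversed among 469 values of named members under other settings, of which 379 stayed called and 90 lost the call. With DESeq2 the members called became 2 in place of 1 for HS in control brains of the Ythdc experiment, 2 in place of 1 for the genotypes in basal replicates 4 to 6, 4 in place of 2 after HS, 6 in place of 2 for *Ythdc* RNAi against control in basal brains and 3 in place of 1 after HS. Without a filter on low counts these became 0 for HS in the control brains of the Ythdc experiment, 1 for the genotypes after HS and 2 for *Ythdc* RNAi after HS. With all 6 basal replicates the 24 h comparisons gave 0 members in both genotypes. The NEB antibody gave 27 members for m6A-IP over input and 1 for its dependence on *Mettl3*. With SYS inputs alone, a choice made after seeing the data, HS in heads gave 0 members in control and 1 in *Mettl3* RNAi. The rule was met by 140 genes with library size alone (all 42 members among them), 80 with a pseudocount of 0.5 (36 members), 30 with one of 2 (21 members) and, chosen after seeing the data, 71 with basal and HS replicates 4 to 6 (22 members). The cause was not tested for any of these.

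With the replicate block the members called were 0 for HS in control brains of the Ythdc experiment and 0 for the genotypes in basal replicates 4 to 6, 5 for HS in *Mettl3* RNAi replicates 4 to 6 and 10 in those of control, and in the other comparisons the count stayed within 1.5 times. Only HS in *Mettl3* RNAi and the genotypes in basal brains had numbers that pair the samples. In the others the samples share a number only. Without the block of the RNA pools 9 members were called for m6A-IP over input.

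Leaving out 1 library at a time gave 5 to 8 members for HS in control replicates 4 to 6, 4 to 6 in *Mettl3* RNAi, 0 to 4 in control and 7 to 10 in *Ythdc* RNAi of the Ythdc experiment, 4 to 7 in control and 6 to 11 in *Mettl3* RNAi heads. It gave 3 to 7 for the genotypes at 24 h, 0 to 1 in basal brains, 0 to 1 after HS, 0 to 5 for *Ythdc* RNAi in basal brains and 0 to 1 after HS, 0 to 2 for 24 h in control and 2 to 6 in *Mettl3* RNAi. Leaving out 1 RNA pool, its m6A-IP and input together, gave 12 to 13 for m6A-IP over input and 0 to 1 for its dependence on *Mettl3*. For the rule, leaving out replicate 1, 2 or 3 of all groups at once gave 58, 48 and 55 genes. Of these, 26, 28 and 36 were among the 42. Control at 6 h has no replicate 3, so it kept 1 library in the first 2 of these settings and both in the third. Leaving out *Mettl3* RNAi basal replicate 1 or 3 alone gave 48 and 47 genes, 35 and 40 of them among the 42. Members near 0 in basal brains rest on a few counts, and with 2 control libraries at 6 h no further check of that group was possible.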

Other observations

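In 34 of the 42 members the mean of the basal control head inputs lay above that of basal control brains of replicates 1 to 3, where 75.0% of all genes with counts in either did so, and the members are not set apart by this. scf was at 112 ± 5.95 CPM (SD, n = 5), sel at 24.8 ± 4.53 CPM and nito at 43.4 ± 4.55 CPM in heads, against 66.8, 8.55 and 28.3 CPM in brains. Head RNA was fragmented and prepared apart from brain RNA, so tissue and preparation cannot be told apart, and no head was taken during recovery.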
